A study of Mus musculus with 9 samples.

Results

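The cell cycle and DNA replication genes examined here are a list of 32 symbols, each matched to its row among the 52381 genes of the deposited expression table. They were chosen by name, with earlier results of these data known. They were divided into 13 S-phase genes, which hold the G1/S cyclins and the replication machinery, and 19 mitotic genes. The libraries were RNA sequencing of lungs from mice with acute lung injury caused by lipopolysaccharide (LPS), a bacterial outer membrane component. One group of 5 lungs came from injured mice that also received trimethylamine N-oxide (TMAO), a metabolite derived from gut bacteria, and is called TMAO here. The other 4 lungs came from injured mice without it and are called LPS-ALI. All 9 mice carried the LPS injury, each library came from its own mouse, and no strain, age, sex or dose is given in the sources used here. The comparison asked what TMAO did to gene expression in the injured lung.

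Cells divide by duplicating their DNA in S phase and separating the copies in mitosis. Cyclins D and E lead a cell into S phase, the MCM helicase opens the DNA, and the mitotic kinases and spindle proteins are made late in the cycle and destroyed at its end. Transcription factors of the E2F family drive the S-phase genes, while the MuvB complexes act on many mitotic promoters through a short element called the CHR, often near CCAAT boxes bound by NF-Y. In the healthy adult lung few cells divide, and after injury endothelial, epithelial and immune cells can re-enter the cycle.

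Short motifs around the start sites are described for both classes. Windows of 300 bases, with 250 before the RefSeq start and 50 after it, were found for 25 of the 32 genes on GRCm38.p6. They were searched on both strands for the CHR (TTTGAA or TTCGAA), for E2F sites (TTTCGCGC, TTTGGCGC or TTTCCCGC) and for CCAAT. A CHR match lay in 12 of 15 mitotic windows (80.0%) and in 2 of 10 S-phase genes (20%), beside 19.23% of all 32851 RefSeq windows. In 4 of those mitotic genes, Aurka, Bub1, Cenpf and Plk1, the CHR lay after the start site alone, which leaves 8 with a CHR before it. An E2F match lay in 4 of 10 S-phase genes, Mcm3, Mcm5, Mcm6 and Mcm7, and in 1 mitotic gene, Cdk1, beside 1.845% of all windows; the Mcm3 matches lay after the start site. A CHR and a CCAAT together were in 12 mitotic windows and in 7.525% of all windows. Single CCAAT matches were common, in 37.41% of all windows, so they separate the classes little: 14 of 15 mitotic and 8 of 10 S-phase genes had one. Such matches describe letters, are not shown to be bound, and were not tested between the classes.

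Stretches from the windows of 4 mitotic genes with the CHR are shown first, then 2 MCM genes with paired E2F letters, and then Birc5, whose window had none of the 3 motifs and which was the 1 member whose groups did not overlap. All are written 5′ to 3′ in the direction of the gene and end at the base before the start site. Capitals mark a match to a motif; CCAAT also appears as ATTGG, and TTTGAA as TTCAAA, where it lies on the other strand.
Top2a, chr11:99024190-99024319, minus strand: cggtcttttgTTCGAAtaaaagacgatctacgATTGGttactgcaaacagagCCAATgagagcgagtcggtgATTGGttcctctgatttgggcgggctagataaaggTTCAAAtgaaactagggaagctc
Cdk1, chr10:69352913-69353047, minus strand: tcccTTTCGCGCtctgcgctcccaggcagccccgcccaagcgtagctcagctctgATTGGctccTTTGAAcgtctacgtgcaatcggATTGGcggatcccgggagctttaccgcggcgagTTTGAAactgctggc
Mki67, chr7:135716380-135716579, minus strand: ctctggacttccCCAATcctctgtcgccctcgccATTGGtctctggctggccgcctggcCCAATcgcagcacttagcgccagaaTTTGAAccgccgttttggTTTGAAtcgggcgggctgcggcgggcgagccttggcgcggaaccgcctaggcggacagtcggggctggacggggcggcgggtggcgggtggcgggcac
Hmgb2, chr8:57511753-57511842, plus strand: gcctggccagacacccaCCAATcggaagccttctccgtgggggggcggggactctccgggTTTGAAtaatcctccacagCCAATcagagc
Mcm6, chr1:128359706-128359825, minus strand: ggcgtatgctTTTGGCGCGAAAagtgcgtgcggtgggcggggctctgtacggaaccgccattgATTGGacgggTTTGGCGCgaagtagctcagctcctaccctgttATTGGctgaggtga
Mcm5, chr8:75109339-75109508, plus strand: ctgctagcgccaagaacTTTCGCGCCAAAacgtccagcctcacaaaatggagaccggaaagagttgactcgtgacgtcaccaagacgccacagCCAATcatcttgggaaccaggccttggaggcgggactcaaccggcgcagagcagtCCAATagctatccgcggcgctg
Birc5, chr11:117849107-117849236, plus strand: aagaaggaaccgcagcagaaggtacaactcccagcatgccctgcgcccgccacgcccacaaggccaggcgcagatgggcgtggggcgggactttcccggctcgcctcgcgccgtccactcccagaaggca

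The Cdk1 stretch holds an E2F site at -131 and CHR elements at -71 and -15, counted from the start site. In Mcm6 and Mcm5 the capitals farthest from the start are overlapping matches on the 2 strands, at -110 and -106 in Mcm6 and at -153 and -149 in Mcm5. In Hmgb2 the CHR at -30 lies between CCAAT boxes.

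**Figure D1:**
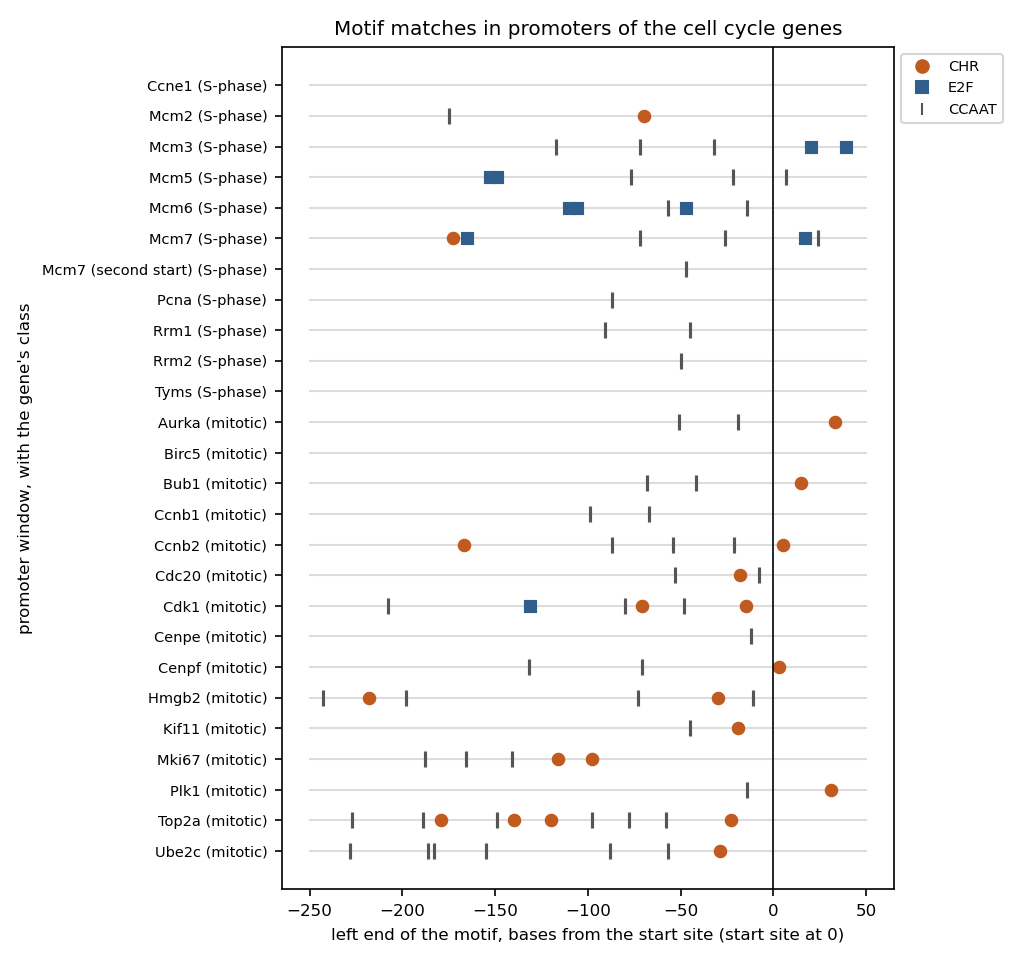
Each line is a promoter window of a matched gene, with bases from the start site on the horizontal axis, circles for CHR, squares for E2F and ticks for CCAAT matches. Circles lie in 12 of 15 mitotic windows and squares in 4 of the 10 S-phase genes; Mcm7 has a second annotated start.

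Values are FPKM, fragments per kilobase of gene scaled to library size, and 11817 genes that reached 1 FPKM in at least 4 libraries were tested. TMAO replicate 5 stood apart from the other libraries. Read totals are not given, and the spacing of low FPKM values put it at 0.379 and the other TMAO libraries at 0.618 to 0.68 of the depth of LPS-ALI replicate 3, the deepest; the other LPS-ALI libraries were at 0.493 to 0.765. TMAO replicate 5 also had the fewest genes at 1 FPKM or more, 8846 against up to 12239, and mitochondrial transcripts took up 52.2% of its FPKM, against 33.4% to 49.3% in the other libraries. It was the lowest library for 75.2% of the tested genes, for all 13 S-phase members and, ties included, for 13 of the 19 mitotic members. Its depth and mitochondrial share move with the members' low values there, and their part was not tested. LPS-ALI replicate 4 also stood apart. Its alveolar type 2 markers summed to 1249 FPKM, against 4870 to 14468 FPKM in the other libraries. It was the highest library for 27.0% of the tested genes, and TMAO replicate 4 was for 39.6%. LPS-ALI replicates 3 and 4 carry library codes that begin with X and the other 7 codes begin with B. What the letters stand for is not stated, and no TMAO library has an X code, so within the X-coded libraries the groups cannot be compared.

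No cell cycle gene passed the test between TMAO and LPS-ALI lungs. Values were compared as log2(FPKM + 1) with limma's moderated test. At an adjusted p under 0.05 limma called 0 of these 11817 genes (0.0%), and the smallest adjusted p over all of them was 0.382. Of the members, 19 were tested and 13 were too low to test, and each of the 19 had an adjusted p of 0.998. At an unadjusted p under 0.05 the test counted 346 genes lower in TMAO (2.93%) and 50 higher (0.423%). Birc5 was the 1 member among the lower genes and no member was among the higher ones. That uneven split depends on the scaling and on TMAO replicate 5. Median-of-ratios scaling counted 441 lower (3.73%), Birc5 among them, and 356 higher (3.01%), Stmn1 among them. Without TMAO replicate 5 there were 355 lower (3.0%), again with Birc5, and 505 higher (4.27%), with no member. The same gene was the 1 member whose groups did not overlap, beside 161 tested genes lower in TMAO without overlap (1.36%). Leaving out LPS-ALI replicate 3 gave 1 called gene over all genes, and leaving out TMAO replicate 4 gave 3. No member was called under any alternative.

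Most members were lower in TMAO, as were most genes. The mean FPKM was lower in TMAO for 28 of the 32 members, 11 of 13 S-phase and 17 of 19 mitotic genes, while 72.07% of all tested genes had a log2 difference below 0. The median tested gene stood at -0.17, so differences are also given relative to it; without TMAO replicate 5 it stood at 0.05. The median log2 difference was -0.31 over the 13 S-phase genes and -0.30 over the 19 mitotic genes, or -0.14 and -0.13 relative to the median gene. The pseudocount of 1 damps low genes: with 0.1 the relative medians were -0.18 for the S-phase genes and -0.50 for the mitotic genes. In the fit without the filter they were -0.26 and -0.25. The values at 0.1 are set against the tested genes, while 11 of the 19 mitotic genes were too low to test. A small pseudocount also widens readings of 0, and 6 mitotic genes read 0 in TMAO replicate 5. No median over low genes was taken at 0.1, so the -0.50 cannot be set beside genes of like level. Over all 24691 genes above 0 in a library, a set that takes in low genes as the member list does, the median was -0.05. Among the tested members, 16 of 19 lay below the median gene, with Top2a and Ccnb2, which entered the test mainly through LPS-ALI, among them.

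**Figure D2:**
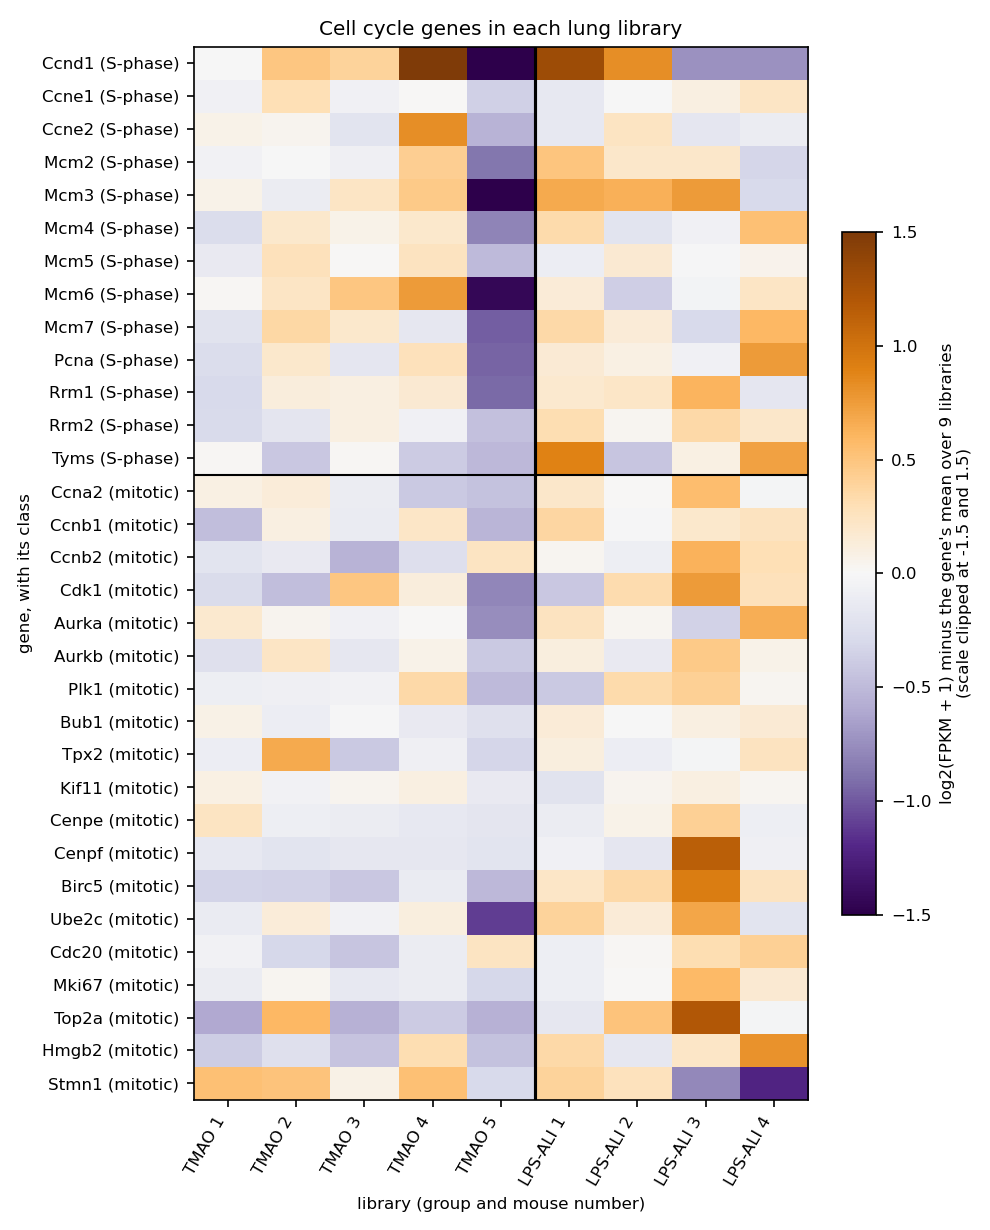
Each row is a gene and each column a library, TMAO left of the line and LPS-ALI right of it; colour is log2(FPKM + 1) minus the gene's mean over the 9 libraries. The TMAO replicate 5 column is lowest for all 13 S-phase genes, and the LPS-ALI replicate 3 column is highest for 12 of the 19 mitotic genes.

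Of the G1 cyclins, Ccnd1 was abundant and varied widely within both groups. Ccnd1 encodes cyclin D1, the partner of CDK4 and CDK6 that senses growth signals. It had 48.63, 68.74, 64.40, 146.99 and 4.68 FPKM in TMAO replicates 1 to 5, against 123.31, 87.53, 29.11 and 29.02 FPKM in LPS-ALI replicates 1 to 4. The groups overlapped, and the X-coded LPS-ALI lungs were the lower ones of that group. Its means were 66.7 ± 51.5 FPKM in TMAO and 67.2 ± 46.4 FPKM in LPS-ALI (SD, n = 5 and 4). The log2 difference relative to the median gene was -0.14 with an SE of 0.74; it turned to 0.39 without TMAO replicate 5 and was -0.998 without the X-coded libraries. The summed FPKM of 8 endothelial markers moved with it in part: it was also lowest in TMAO replicate 5, at 142, and highest in TMAO replicate 4, at 1099. That order was not particular to endothelial markers. TMAO replicate 5 was the lowest library for 75.2% of the tested genes and TMAO replicate 4 the highest for 39.6%. The summed FPKM of 6 fibroblast markers had the same extremes, 33.1 and 250. In LPS-ALI the endothelial sum was 353 and 372 in replicates 3 and 4, against 615 and 672 in replicates 1 and 2. The list was split in LPS-ALI replicate 4. Cldn5 had its highest value of all libraries there, 254.56 FPKM, most of that sum. Pecam1, Tie1, Tek and Plvap had their lowest there, at 26.96, 1.94, 0.66 and 7.40 FPKM. The median of the endothelial markers was 26.9 FPKM in replicate 3 and 16.3 FPKM in replicate 4. The part of endothelial content in the cyclin D1 values was not tested, and in bulk tissue fewer cells of a type and less RNA per cell cannot be told apart.

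The E cyclins, which bind CDK2 at the entry to S phase, were near the floor of the measurement. Ccne1 ranged over 0 to 0.58 FPKM in TMAO and 0.16 to 0.50 FPKM in LPS-ALI. Ccne2 ranged over 0.07 to 1.75 FPKM in TMAO and 0.38 to 0.84 FPKM in LPS-ALI. Neither entered the test.

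The 6 subunits of the MCM helicase, the ring that unwinds DNA ahead of the fork, did not separate the groups. Over the 6 genes the median log2 difference was -0.27, or -0.10 relative to the median gene, with 4 of 6 below it. Mcm3 differed most, at 7.01, 6.09, 8.03, 9.58 and 0.45 FPKM in TMAO replicates 1 to 5 and 11.28, 10.93, 11.95 and 5.26 FPKM in LPS-ALI replicates 1 to 4. Every LPS-ALI lung except replicate 4 was above every TMAO lung. Its log2 difference relative to the median gene was -0.63 with an SE of 0.53 (limma unadjusted p = 0.151), and -0.33 without TMAO replicate 5. Mcm2 stood at 0.64 to 3.03 FPKM in TMAO and 1.39 to 3.22 FPKM in LPS-ALI. Mcm4 stood at 1.08 to 3.15 FPKM in TMAO and 2.17 to 4.23 FPKM in LPS-ALI. Relative to the median gene these subunits stood at -0.09 and -0.10.

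Mcm5 and Mcm6, whose promoters carry the overlapping E2F letters shown above, lay slightly above the median gene, by 0.13 and 0.19. Mcm5 had 1.14 to 2.65 FPKM in TMAO and 1.81 to 2.40 FPKM in LPS-ALI. Mcm6 had 5.25, 6.26, 7.65, 9.44 and 1.28 FPKM in TMAO replicates 1 to 5, against 5.84, 3.80, 5.00 and 6.26 FPKM in LPS-ALI replicates 1 to 4. The LPS-ALI values fell inside the TMAO range. Mcm7 had 3.13 to 9.45 FPKM in TMAO and 5.64 to 11.30 FPKM in LPS-ALI, and its exons overlap those of Ap4m1 and Cops6 on the other strand. The subunits of the ring did not share a side of the median gene.

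The sliding clamp and the enzymes of nucleotide supply all lay below the median gene, with a median log2 difference of -0.41, or -0.24 relative to it. Pcna, the clamp that holds polymerases on DNA, had 29.15, 40.31, 31.12, 42.69 and 17.68 FPKM in TMAO replicates 1 to 5 and 39.36, 37.49, 33.54 and 60.43 FPKM in LPS-ALI replicates 1 to 4. Its groups overlapped, with the highest value in LPS-ALI replicate 4 and the lowest in TMAO replicate 5. The log2 difference of Pcna relative to the median gene was -0.25, and -0.11 without LPS-ALI replicate 4. Tyms, thymidylate synthase, had 4.85, 3.33, 4.88, 3.43 and 3.08 FPKM in TMAO and 9.80, 3.30, 5.17 and 8.55 FPKM in LPS-ALI. LPS-ALI replicates 1, 3 and 4 were above every TMAO lung, replicate 3 by little, and replicate 2 lay inside the TMAO range.

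Rrm1 and Rrm2 are the large and the small subunit of ribonucleotide reductase, and Rrm2 is the one made mainly in S phase. Rrm2 had 0.87, 1.00, 1.44, 1.17 and 0.65 FPKM in TMAO replicates 1 to 5, against 1.83, 1.33, 1.90 and 1.63 FPKM in LPS-ALI replicates 1 to 4. The groups overlapped through TMAO replicate 3, which was above LPS-ALI replicate 2. The log2 difference of Rrm2 relative to the median gene was -0.24 with an SE of 0.25. Rrm1 had 1.97 to 5.41 FPKM in TMAO and 4.03 to 7.72 FPKM in LPS-ALI; its relative difference was -0.21, and -0.01 without LPS-ALI replicate 3. Pseudogene copies named for Pcna and Tyms are annotated, so their counts may be split.

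The mitotic genes were expressed at lower levels than the S-phase genes in every library. The median of the 19 mitotic genes was 0.36, 0.74, 0.39, 0.70 and 0.17 FPKM in TMAO replicates 1 to 5 and 0.83, 0.72, 1.52 and 0.88 FPKM in LPS-ALI replicates 1 to 4. TMAO replicate 2 lay just above LPS-ALI replicate 2, so the groups overlapped. The median of the 13 S-phase genes was 3.61, 3.33, 4.88, 3.43 and 1.14 FPKM in TMAO and 5.43, 3.30, 5.00 and 4.23 FPKM in LPS-ALI, with a wide overlap.

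**Figure D3:**
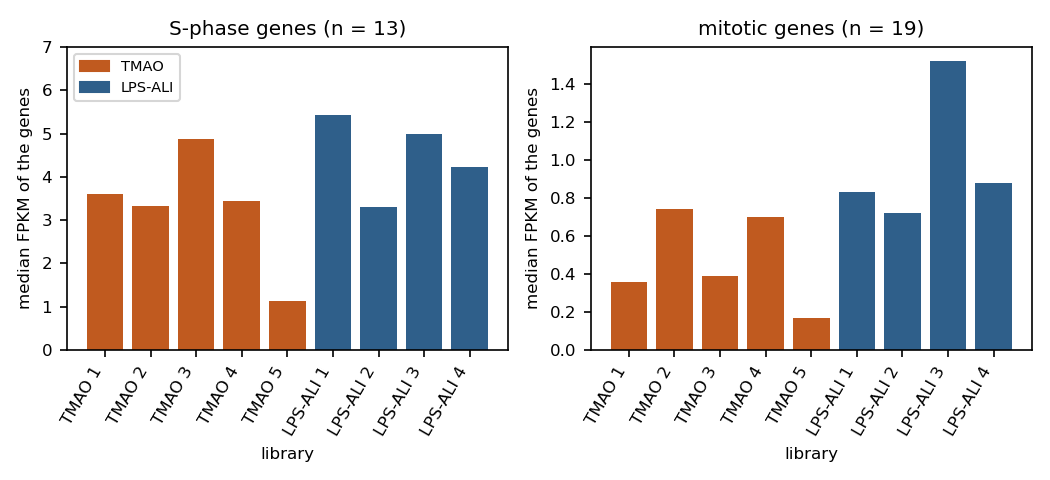
Bars give the median FPKM of the 13 S-phase genes (left) and the 19 mitotic genes (right) in each library, TMAO in orange and LPS-ALI in blue; the vertical scales differ. LPS-ALI replicate 3 has the highest mitotic median, 1.52 FPKM, and TMAO replicate 5 the lowest of both panels, 1.14 and 0.17 FPKM.

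One lung accounted for many of the high mitotic values. LPS-ALI replicate 3 was the highest library, 1 tie included, for 12 of the 19 mitotic genes: Ccna2, Ccnb2, Cdk1, Aurkb, Plk1, Kif11, Cenpe, Cenpf, Birc5, Ube2c, Mki67 and Top2a. It was highest for 3 of the 13 S-phase genes, for 7.77% of the tested genes and for 15.4% of the untested genes above 0. It was also the deepest library and X-coded, and its mouse had the highest summed B and plasma cell markers, 9.39 FPKM, against 1.51 to 4.28 FPKM in TMAO and 5.46 to 8.41 FPKM in the other LPS-ALI lungs. Ciliated cell markers summed to 24.8 and 44.4 FPKM in LPS-ALI replicates 3 and 4, while the TMAO lungs had 4.09 to 5.10 FPKM and LPS-ALI replicates 1 and 2 had 5.17 and 4.71 FPKM. The part of depth and of these cells in the mitotic values of replicate 3 was not tested. Without this lung the median relative difference of the 19 mitotic genes was 0.02, and without both X-coded lungs it was 0.07. Both are relative to the median tested gene, which itself stood at -0.23 and -0.21 in these settings. Of the 19 mitotic genes 11 were too low to test, so they are set against genes of higher level. Without TMAO replicate 5 the mitotic value was -0.30.

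The cyclins and kinases of G2 and mitosis were low, and each of the 8 had a lower mean in TMAO. Cdk1, the kinase that starts mitosis, had 0.68, 0.47, 1.85, 1.22 and 0.18 FPKM in TMAO replicates 1 to 5 and 0.53, 1.56, 2.44 and 1.46 FPKM in LPS-ALI replicates 1 to 4. Its groups overlapped, since LPS-ALI replicate 1 was below 3 TMAO lungs. Ccnb2, a B-type cyclin that activates CDK1, had 0.77, 0.85, 0.39, 0.72 and 1.39 FPKM in TMAO and 1.06, 0.90, 2.13 and 1.5 FPKM in LPS-ALI. TMAO replicate 5, the lowest library for most genes, was the highest of the TMAO lungs here. Both genes had a relative difference of -0.02 without LPS-ALI replicate 3, against -0.25 for Cdk1 and -0.22 for Ccnb2 with all libraries.

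Ccna2, cyclin A2, had 0.25 to 0.88 FPKM in TMAO and 0.67 to 1.52 FPKM in LPS-ALI. Ccnb1, the main B-type cyclin, had 0.13, 0.69, 0.44, 0.83 and 0.09 FPKM in TMAO replicates 1 to 5 and 1.04, 0.56, 0.80 and 0.88 FPKM in LPS-ALI replicates 1 to 4. The Ccnb1 ranges crossed through TMAO replicates 2 and 4. Bub1, a kinase of the spindle checkpoint, had 0.24, 0.10, 0.16, 0.07 and 0 FPKM in TMAO and 0.30, 0.17, 0.26 and 0.31 FPKM in LPS-ALI. In a fit without the filter on low values, Bub1 had an unadjusted limma p of 0.0331, beside 2.95% of 24691 genes that were lower in TMAO at that level. Aurka, Aurkb and Plk1, the kinases that build and check the spindle, each read 0 in TMAO replicate 5 and ranged up to 0.92, 0.55 and 0.80 FPKM in the other TMAO lungs, against up to 1.65, 0.83 and 0.89 FPKM in LPS-ALI.

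Of the spindle and kinetochore genes, Birc5 stood apart. Birc5 encodes survivin, which guides the chromosomal passenger complex in mitosis and also inhibits cell death, and lies at chr11:117849251-117855743 on the plus strand of GRCm38. It had 1.39, 1.38, 1.26, 1.77 and 1.12 FPKM in TMAO replicates 1 to 5, against 2.50, 2.84, 4.74 and 2.59 FPKM in LPS-ALI replicates 1 to 4. All 5 TMAO lungs lay below all 4 LPS-ALI lungs, including the low TMAO replicate 5. The means were 1.38 ± 0.24 FPKM in TMAO and 3.17 ± 1.06 FPKM in LPS-ALI (SD, n = 5 and 4), a ratio of 0.437. The log2 difference was -0.78 with an SE of 0.28, or -0.61 relative to the median gene (limma unadjusted p = 0.0151, adjusted p = 0.998). Without LPS-ALI replicate 3 the relative difference was -0.39 and the unadjusted limma p 0.0584; without both X-coded lungs they were -0.41 and 0.101. Over all alternatives its adjusted p was at least 0.521.

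The other spindle genes were at the edge of detection. Tpx2, which activates Aurora A, had 1.32 FPKM in TMAO replicate 2 and 0.10 to 0.38 FPKM in the other TMAO lungs, against 0.36 to 0.73 FPKM in LPS-ALI. Kif11, the motor that pushes spindle poles apart, had 0.08 to 0.27 FPKM in TMAO and 0.03 to 0.27 FPKM in LPS-ALI. Cenpf, a kinetochore protein, had 0 to 0.04 FPKM in TMAO, while LPS-ALI replicate 3 had 1.54 FPKM and the other LPS-ALI lungs 0.02 to 0.10 FPKM. Cenpe, a kinetochore motor, had 0.34 FPKM in TMAO replicate 1 and 0 to 0.07 FPKM in the other TMAO lungs, against 0.05 to 0.52 FPKM in LPS-ALI.

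The 2 partners of the anaphase-promoting complex, the ligase that ends mitosis by marking cyclin B for destruction, were lower on average in TMAO with overlap. Ube2c, its ubiquitin-conjugating enzyme, had 1.95, 2.53, 2.09, 2.48 and 0.49 FPKM in TMAO replicates 1 to 5 and 3.21, 2.57, 4.22 and 1.80 FPKM in LPS-ALI replicates 1 to 4. LPS-ALI replicate 4 was the 1 lung of its group inside the TMAO range. Cdc20, its activator, had 0.77 to 1.80 FPKM in TMAO and 1.24 to 2.17 FPKM in LPS-ALI. The relative difference of Cdc20 was -0.13, and 0.12 without the X-coded lungs.

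The standard proliferation markers were low in both groups. Mki67, which encodes the Ki-67 antigen, had 0.19, 0.31, 0.16, 0.19 and 0.04 FPKM in TMAO replicates 1 to 5, against 0.21, 0.29, 0.93 and 0.45 FPKM in LPS-ALI replicates 1 to 4. LPS-ALI replicates 3 and 4 were above every TMAO lung, and TMAO replicate 2 was above LPS-ALI replicates 1 and 2. Top2a, the topoisomerase that untangles sister chromatids, had 0.34, 2.08, 0.39, 0.56 and 0.39 FPKM in TMAO and 0.83, 1.92, 3.69 and 1.00 FPKM in LPS-ALI. Every TMAO lung except replicate 2 lay below every LPS-ALI lung. Top2a reached 1 FPKM in 3 LPS-ALI lungs and 1 TMAO lung, as did Ccnb2, so both entered the test mainly through LPS-ALI. The log2 difference of Top2a relative to the median gene was -0.51 with an SE of 0.34 (limma unadjusted p = 0.063), -0.18 without LPS-ALI replicate 3, and -1.05 with a pseudocount of 0.1.

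Hmgb2, a chromatin protein of dividing cells, and Stmn1 lay on opposite sides of the median gene. Hmgb2 had 14.09, 15.75, 13.48, 23.47 and 13.39 FPKM in TMAO replicates 1 to 5 and 23.92, 16.65, 21.77 and 33.18 FPKM in LPS-ALI replicates 1 to 4. TMAO replicate 4 alone crossed into the LPS-ALI range. Stmn1, the microtubule-destabilising stathmin, lies at chr4:134468320-134473843 and was the most abundant member. It had 112.60, 111.09, 81.85, 112.82 and 62.74 FPKM in TMAO replicates 1 to 5, against 102.26, 93.65, 44.83 and 32.70 FPKM in LPS-ALI replicates 1 to 4. The X-coded LPS-ALI lungs were below every TMAO lung, while the other LPS-ALI lungs were inside the TMAO range. Its log2 difference was 0.60 with an SE of 0.38, or 0.77 relative to the median gene (limma unadjusted p = 0.132). Without the X-coded lungs the log2 difference was -0.06, or 0.15 relative to the median gene.

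**Figure D4:**
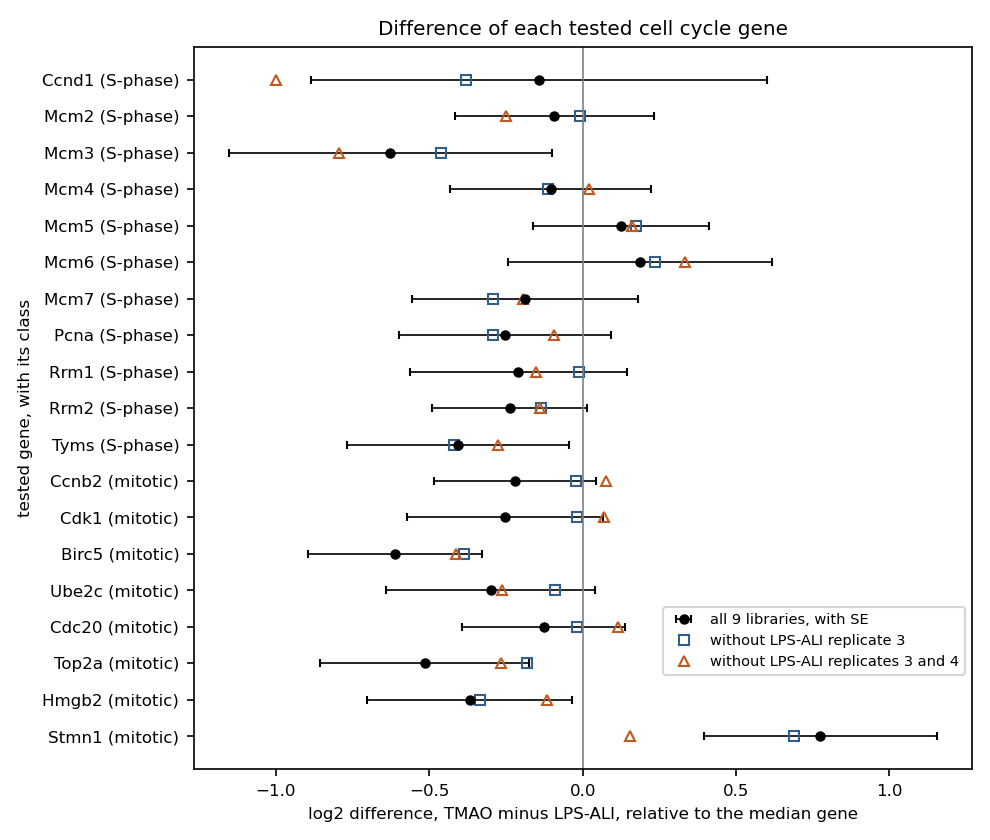
Filled points give the log2 difference, TMAO minus LPS-ALI, of the 19 tested genes relative to the median gene with SE; open squares leave out LPS-ALI replicate 3 and open triangles leave out LPS-ALI replicates 3 and 4. Of the filled points 16 lie left of 0; of these, Mcm4, Ccnb2, Cdk1 and Cdc20 stand right of 0 without LPS-ALI replicates 3 and 4.

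The other 9 cell cycle lists, 156 genes in all with 102 tested, gave no call, and the smallest adjusted limma p among them was 0.998. Their tested genes split evenly about the median gene, 54 of 102 below it (52.94%). At an unadjusted limma p under 0.05, 4 of the 102 were lower in TMAO and 1 was higher, beside the 2.93% and 0.423% of all tested genes, shares that move with the scaling as given above. The groups did not overlap for 2 tested genes lower in TMAO and 1 higher, beside 1.36% and 0.118%.

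Both of the non-overlapping lower genes belong to the replication fork. Gins1, a subunit of the GINS ring that joins the MCM helicase when an origin fires, lies at chr2:150905400-150931280. It had 0.35, 1.02, 0.82, 0.98 and 0 FPKM in TMAO replicates 1 to 5 and 1.77, 2.00, 2.51 and 1.86 FPKM in LPS-ALI replicates 1 to 4. All TMAO lungs lay below all LPS-ALI lungs, with means of 0.634 and 2.04 FPKM. Its log2 difference was -0.94 with an SE of 0.28, or -0.77 relative to the median gene (limma unadjusted p = 0.00422, adjusted p = 0.998), and the relative value was -0.85 to -0.63 with any 1 library left out and -1.71 with a pseudocount of 0.1. Gins1 reached 1 FPKM in TMAO replicate 2 alone among the TMAO lungs, so it entered the test mainly through LPS-ALI, and a gene that passes that way had to be higher there.

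Cdc45, the third part of that active helicase, was too low to test and showed the same order, with 0.26, 0.37, 0.41, 0.42 and 0 FPKM in TMAO replicates 1 to 5 and 0.73, 0.59, 0.90 and 0.76 FPKM in LPS-ALI replicates 1 to 4. Groups did not overlap in this direction for 1.03% of the 24691 genes above 0 in a library; Cdc45 was named after its values were seen. Rfc3, a subunit of the loader that places the Pcna clamp, lies at chr5:151642756-151651242. It had 1.68, 2.22, 2.42, 3.66 and 1.01 FPKM in TMAO replicates 1 to 5 and 3.94, 4.08, 4.66 and 6.62 FPKM in LPS-ALI replicates 1 to 4. The groups were apart by a small gap, between TMAO replicate 4 and LPS-ALI replicate 1. Its log2 difference was -0.90 with an SE of 0.34, or -0.73 relative to the median gene (limma unadjusted p = 0.0171, adjusted p = 0.998), and -0.49 relative to it without the X-coded lungs. The groups overlapped for the other subunits of the GINS ring and of the loader. Relative differences were -0.09 for Gins2 and 0.10 for Gins4, and Gins3 was too low to test. Rfc1, Rfc2, Rfc4 and Rfc5 had relative differences of -0.07, -0.20, -0.56 and -0.55.

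Of the 8 inhibitors of cyclin-dependent kinases, 1 was higher in TMAO without overlap. Cdkn2c encodes p18-INK4c, which binds CDK4 and CDK6, and lies at chr4:109660876-109667189. It had 8.39, 14.91, 8.60, 11.98 and 7.45 FPKM in TMAO replicates 1 to 5, against 6.44, 5.98, 4.85 and 2.79 FPKM in LPS-ALI replicates 1 to 4. Every TMAO lung, the low replicate 5 included, was above every LPS-ALI lung. Its log2 difference was 0.91 with an SE of 0.36, or 1.08 relative to the median gene (limma unadjusted p = 0.0216, adjusted p = 0.998). The relative value was 0.83 to 1.18 with any 1 library left out and 0.82 without the X-coded lungs, where the unadjusted limma p was 0.205. The inhibitors shared no direction: Cdkn1a, the p53 target p21, had 61.57 to 228.94 FPKM in TMAO and 93.67 to 355.48 FPKM in LPS-ALI. Cdkn2b, p15-INK4b, had 5.58 to 7.39 FPKM in TMAO and 4.08 to 8.93 FPKM in LPS-ALI apart from replicate 4, which had 68.37 FPKM.

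**Figure D5:**
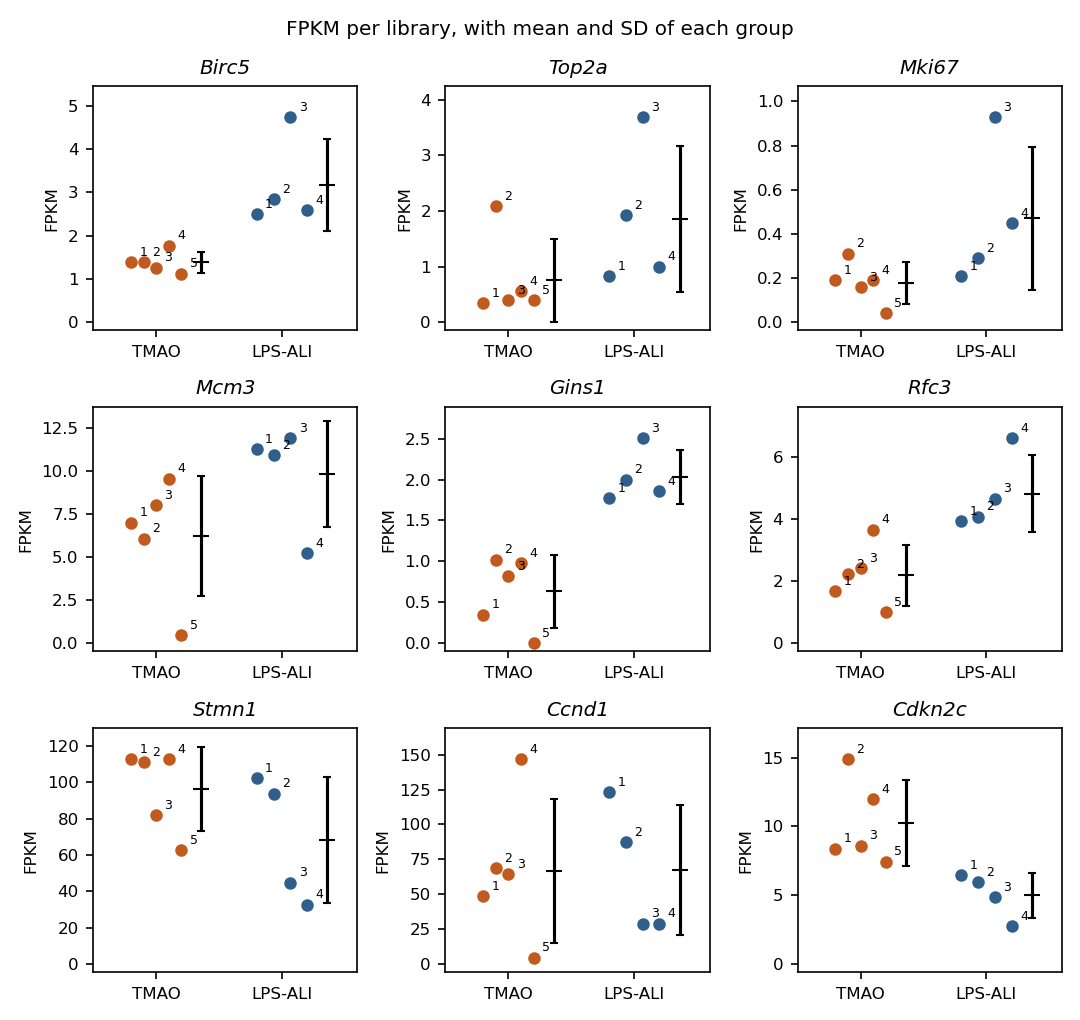
Each panel shows a gene's FPKM in the 5 TMAO lungs (orange, left) and the 4 LPS-ALI lungs (blue, right), numbered by mouse, with the group mean and SD in black. The groups are apart for Birc5, Gins1 and Rfc3, all lower in TMAO, and for Cdkn2c, higher in TMAO; they overlap in the other panels.

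The remaining replication genes were lower on average with overlap. The median log2 difference was -0.24 over 17 genes of origin licensing and firing, and -0.28 over 25 polymerase and fork genes, beside -0.17 for the median tested gene and -0.05 over all genes above 0. Orc3 and Orc5, subunits of the origin recognition complex, had relative differences of -0.14 and -0.19. Pold1, the catalytic subunit of DNA polymerase delta, had 0.72 to 5.27 FPKM in TMAO and 2.38 to 5.81 FPKM in LPS-ALI apart from replicate 3, which had 13.18 FPKM. Rfc4, another loader subunit, had 0 to 4.02 FPKM in TMAO and 2.26 to 5.52 FPKM in LPS-ALI.

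Over 40 other kinetochore and spindle genes, of which 10 were tested, the median log2 difference was -0.13, and over 13 cohesin and condensin genes it was -0.07. Pttg1, securin, the inhibitor that holds sister chromatids together until anaphase, had 49.05, 72.41, 62.94, 75.73 and 33.43 FPKM in TMAO replicates 1 to 5 and 83.10, 77.15, 63.47 and 67.99 FPKM in LPS-ALI replicates 1 to 4. It was among the more abundant mitotic genes, in the range of Stmn1, and its groups overlapped. Spc25, of the NDC80 complex, had 0.16 to 2.37 FPKM in TMAO and 1.34 to 2.22 FPKM in LPS-ALI, and Kif22, a chromosome motor, had 0 to 1.40 FPKM in TMAO and 0.66 to 2.92 FPKM in LPS-ALI. The condensin subunits Ncapd2 and Ncaph had relative differences of -0.62 and -0.31, and Smc3, of cohesin, 0.33.

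The G1 machinery and the factors that control these genes lay close to the median gene. Medians were -0.11 over 9 G1 cyclins and kinases and -0.15 over 19 E2F, pocket protein and mitotic transcription factor genes. Cdk4, the partner of the D cyclins, had 40.67, 40.69, 36.86, 44.17 and 13.25 FPKM in TMAO replicates 1 to 5 and 47.37, 48.71, 41.82 and 41.77 FPKM in LPS-ALI replicates 1 to 4. TMAO replicate 5 was far below the rest of its group. Ccnd3, cyclin D3, had 40.29 to 108.43 FPKM in TMAO and 80.79 to 109.56 FPKM in LPS-ALI, and Cdc25b, a phosphatase that activates CDK1, had 1.31 to 5.58 FPKM in TMAO and 1.59 to 4.84 FPKM in LPS-ALI. E2f2, E2f4 and Lin37, of the E2F and MuvB families, had relative differences of -0.09, -0.14 and -0.18.

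Of 16 p53 target and DNA damage genes the median log2 difference was -0.27, and of 9 quiescence-associated genes it was -0.22. Plk3, a stress-induced kinase, had 1.64, 3.49, 2.91, 4.31 and 0.84 FPKM in TMAO replicates 1 to 5 and 5.41, 4.22, 5.64 and 8.25 FPKM in LPS-ALI replicates 1 to 4, a relative difference of -0.82 (limma unadjusted p = 0.019, adjusted p = 0.998). The groups crossed by the values of TMAO replicate 4 and LPS-ALI replicate 2. Klf2, a transcription factor of quiescent T cells and endothelium, had 62.93, 106.77, 96.49, 184.01 and 30.44 FPKM in TMAO and 159.24, 174.14, 222.54 and 136.33 FPKM in LPS-ALI, a relative difference of -0.88 (limma unadjusted p = 0.0273, adjusted p = 0.998). TMAO replicate 4 alone lay within the LPS-ALI range. Btg2 and Gadd45b, early stress-response genes, had relative differences of -0.53 and -0.44. Btg1 and Tob1, antiproliferative relatives of Btg2, had -0.27 and -0.39.

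Markers of cell types that can bring dividing cells into the lung also moved between the libraries. The summed FPKM of 9 T and NK cell markers was 12.6 to 22.1 in TMAO and 31.5 to 89.0 in LPS-ALI, without overlap, and 9 of 9 had a lower mean in TMAO. Gzma and Gzmb took up much of these sums. Gzma had 6.92 to 12.99 FPKM in TMAO and 18.07 to 39.45 FPKM in LPS-ALI, and Gzmb 1.80 to 2.74 and 4.99 to 27.80 FPKM. Klrb1c was also apart, at 0.11 to 0.32 and 0.48 to 1.80 FPKM. The groups overlapped for Cd3e, Cd3g, Cd2, Cd8a and Nkg7, and touched at 0.40 FPKM for Cd3d. Cd3d, Cd8a and Nkg7 read 0 in at least 1 library. The 6 B and plasma cell markers summed to 1.51 to 4.28 FPKM in TMAO and 5.46 to 9.39 FPKM in LPS-ALI, also without overlap. The 8 markers listed for granulocyte precursors summed to 143 to 493 FPKM in TMAO and 386 to 847 FPKM in LPS-ALI, with 7 of 8 lower on average in TMAO. Mpo, Elane, Prtn3 and Ctsg were at most 3.44 FPKM in any library, and Mpo, Elane and Ctsg read 0 in some library. Ngp, Ltf, Camp and Chil3 made up nearly all of the sum, so it is not a measure of dividing precursors. Chil3, which the alveolar macrophage list shares, took up much of both sums; without it the granulocyte precursor sum was 92.6 to 287 FPKM in TMAO and 181 to 572 FPKM in LPS-ALI.

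Erythroid markers summed to 124 to 291 FPKM in TMAO, against 2327 FPKM in LPS-ALI replicate 4 and at most 240.3 FPKM in the other LPS-ALI lungs, and Klf1 read 0 in all 9 libraries. Alveolar macrophage markers are of another population that can divide in place. Without Chil3 they summed to 111 to 149 FPKM in TMAO and 114 to 322 FPKM in LPS-ALI, with overlap. Of these markers 5 of 7 were lower on average in TMAO. Car4 and Fabp4 made up most of the sum in each library, with 138.51 and 122.33 FPKM in LPS-ALI replicate 4. Siglecf and Mrc1 went the other way, with a higher mean in TMAO. Siglecf had its lowest value, 0.33 FPKM, in LPS-ALI replicate 4. The sum therefore mostly follows Car4 and Fabp4 and is not a measure of macrophage content. With Chil3 the sums were 162 to 353 FPKM in TMAO and 284 to 557 FPKM in LPS-ALI. The part of these cell types in the values of Birc5, Gins1, Rfc3 and the other members was not tested. The labels name lung while their extraction wording names platelets: 8 alveolar type 2 markers summed to 4870 to 10867 FPKM in TMAO and 1249 to 14468 FPKM in LPS-ALI, and 7 platelet markers to 17.7 to 27.3 FPKM in TMAO and 30.7 to 74.1 FPKM in LPS-ALI, so the defining genes of lung were present in each library.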

How the data were processed

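RNA was sequenced from 9 lungs, 5 TMAO and 4 LPS-ALI, grouped by the labels; the titles number the mice. Per the labels' protocols, Trizol-extracted total RNA was freed of ribosomal RNA and went into NEBNext Ultra II libraries. The authors deposited FPKM with 2 decimals; the submitters' processing notes name fastp, HISAT2, SAMtools, featureCounts and mm10. Their versions, the annotation and the strand setting were not given in the sources used here, so genes that overlap on opposite strands (Ccnd1, Ccne2, Mcm7, Ccna2, Plk1, Ube2c and Cdc20) or have named copies (Pcna, Tyms, Ccnb1, Ccnb2 and Stmn1) may share reads. Of 52381 identifiers, 52073 matched GENCODE on GRCm38, the assembly of mm10, which gave gene positions; promoters came from RefSeq. For a repeated symbol the row with the highest mean was used.

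FPKM are not counts, so log2(FPKM + 1), which understates changes of low genes, was tested with limma 3.58.1 in R 4.3.3 (mean-variance trend, two-sided, Benjamini-Hochberg over the 11817 genes at 1 FPKM or more in at least 4 libraries, threshold 0.05). The difference is TMAO minus LPS-ALI. List medians take all genes of a list, tested or not. The members, lists and tests were chosen with earlier results of these data known. All 32 members are described, and from each other list the 3 tested genes with the smallest p. Absolute depth is unknown, so no counting intervals are given; relative depth came from the commonest ratio between libraries over genes at 0.05 FPKM or more and present in at most 5 libraries, and all 36 library pairs agreed within 0.1 log2 units. No pair of libraries had equal values for more than 63 tested genes, so none was a copy. The fit was tested on simulated data. Alternatives were a pseudocount of 0.1, no filter, a mean FPKM filter, median-of-ratios scaling, no trend, a threshold of 0.1, the mouse number as a block, and the removal of single libraries or of the X-coded pair. Leaving out LPS-ALI replicate 4 with TMAO replicate 5 was added after seeing the data. Python 3.11.15, pandas 2.3.3 and matplotlib 3.10.9 were used.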

Additional observations from a re-analysis of the deposited data

Results flagged for a closer look

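Within a group, a lung was marked where its gap to the nearest other lung took up most of the group's range (Dixon's criterion at 95%). Of 118 gene and group pairs examined, 14 were marked. For independent, normally distributed values chance marks about 1 in 20, or 5.9 of them. FPKM near the floor need not be so distributed and the genes share libraries, so 14 cannot be set against 5.9. For members, the marked TMAO values were Tpx2 and Top2a in TMAO replicate 2, at 1.32 and 2.08 FPKM, Cenpe in TMAO replicate 1, at 0.34 FPKM, and Hmgb2 in TMAO replicate 4, at 23.47 FPKM, all high. Ube2c in TMAO replicate 5 was low, at 0.49 FPKM. In LPS-ALI, replicate 3 was high for Cenpf, at 1.54 FPKM, and Birc5, at 4.74 FPKM. Ccne2 was high in LPS-ALI replicate 2, at 0.84 FPKM, and Mcm3 low in LPS-ALI replicate 4, at 5.26 FPKM.

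Of the other cell cycle genes, Cdk4 was low in TMAO replicate 5, at 13.25 FPKM. In LPS-ALI replicate 1, Ncapd2 and Ccnd3 were high, at 7.28 and 109.56 FPKM. In LPS-ALI replicate 4, Cdkn2b and Btg1 were high, at 68.37 and 89.97 FPKM.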

How the results depend on the processing

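Without LPS-ALI replicate 3 limma called 1 gene over all genes and without TMAO replicate 4 it called 3, a range of 0 to 3 with any 1 library left out; the cause was not tested, and the other alternatives called 0. No member was called in any alternative, and 13 of the 19 tested members and 21 of the 27 named list genes kept their side of the median gene in all of them. With any 1 library left out, the median relative log2 difference was -0.23 to -0.09 for the S-phase genes and -0.30 to 0.02 for the mitotic genes. A pseudocount of 0.1 moved the mitotic median to -0.50 and the S-phase median to -0.18, both relative to the median tested gene and not to low genes. With any 1 library left out the relative difference was -0.48 to 0.39 for Ccnd1, -0.56 to 0.0893 for Ncaph, -0.48 to 0.055 for Cdkn1a, -0.97 to 0.19 for Cdkn2b, -0.26 to 0.075 for E2f2 and -0.48 to 0.13 for Btg1. Without the X-coded libraries it turned to 0.0224 for Mcm4, 0.075 for Ccnb2, 0.0702 for Cdk1, 0.116 for Cdc20, 0.0332 for Orc3, 0.0332 for Cdkn2b and 0.24 for Btg1. Without LPS-ALI replicate 4 and TMAO replicate 5 it turned to 0.0444 for Ccnd1, -0.00784 for Mcm5, 0.017 for Orc3, 0.133 for Ncaph, 0.097 for Cdkn1a, 0.00285 for Cdkn2b and 0.12 for Btg1. The causes were not tested.

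The titles number the mice and state no pairing. Deviations of same-numbered lungs correlated at 0.0641, -0.0111, -0.0331 and -0.134, inside the -0.23 to 0.285 of the other pairs. With so few lungs these values cannot exclude a pairing. With the number as a replicate block, which leaves TMAO replicate 5 without a partner, limma again called 0 genes, with 374 higher and 372 lower in TMAO at an unadjusted p under 0.05, and Ccnd1 turned to 0.39. Median-of-ratios scaling put the median gene at -0.01. For members under 1 FPKM the 2-decimal values and the unknown depth limit what can be seen.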
